A study of Mus musculus with 12 samples.

Results

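Hearts of mice given alginate oligosaccharides alone were set against hearts of untreated mice, gene by gene, in 6 of the 12 RNA sequencing libraries of the study. The AOS group (3 libraries) received alginate oligosaccharides (AOS), short sugar chains cut from a polymer of seaweed cell walls, and no other agent, at 10 mg/kg over 5 weeks. The control group (3 libraries) received nothing. The other 6 libraries came from hearts exposed to a single dose of the alkylating drug busulfan at 40 mg/kg, with the same AOS course after it (3 libraries) or without it (3 libraries). They entered the estimate of spread and the last comparison below. The strain label of all samples is IRC mouse; the sources used here do not give age, sex or the route of dosing. The tissue label reads Cells, while the series title and the extraction step name the heart. Estimated counts existed for 19246 genes, of which 14687 had enough counts to be tested. Levels are given as FPKM, fragments scaled to transcript length and library total, which can be compared between genes. Nothing in the labels ties each library to an animal of its own, and p-values therefore measure spread among libraries, which may be technical.

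Heart muscle beats without pause, draws most of its energy from fatty acids through mitochondria, and keeps its contractile proteins folded with abundant small heat shock proteins. Damaged proteins are cleared by the proteasome and by autophagy, and reactive oxygen from respiration is held down by glutathione, thioredoxin and selenium enzymes. A dissected heart also carries atria, fat, the outer mesothelial layer, blood and, at the vessel roots, bits of airway or nerve. In bulk RNA, fewer cells of a type and less RNA per cell cannot be told apart.

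Ventricular markers were high in all 6 libraries, and the markers of other tissues set 1 library apart before any treatment comparison. Library totals were 11722908, 12670751 and 12287153 estimated counts in AOS replicates 1, 2 and 3, against 9929772, 11818911 and 10835989 in control replicates 1, 2 and 3. Log2 CPM values of AOS replicate 2 correlated with the other 5 libraries at 0.909 to 0.941, while all other pairs lay between 0.953 and 0.979. The first principal component of the 6 libraries held 50.8% of the variance and placed AOS replicate 2 at 89.3, with the others between -48.1 and 8.28. Results are therefore given with and without AOS replicate 2.

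Atrial, airway, fat and mesothelial transcripts were the content that differed. Myl7, the atrial myosin light chain, stood at 11.4, 5565 and 604 FPKM in AOS replicates 1 to 3, and at 132, 3321 and 234 FPKM in control replicates 1 to 3. High and low libraries occurred in both groups. Myl2, the ventricular light chain, stood at 14169, 4294 and 13312 FPKM in the AOS libraries and at 18054, 14144 and 14164 FPKM in the control libraries, so only AOS replicate 2 fell clearly below the rest. Scgb1a1, the secretory protein of airway club cells, reached 4155 FPKM in AOS replicate 2, against 13.8 and 232 FPKM in AOS replicates 1 and 3 and 45.7 to 85.1 FPKM in controls. The fat cell hormone Adipoq was at 2.03, 70.1 and 7.14 FPKM in AOS libraries and at 0.18, 8.70 and 0.68 FPKM in control libraries. Summed over its list, the mesothelium had 19.3, 161 and 45.2 FPKM in AOS hearts and 21.4, 55.8 and 23.2 FPKM in control hearts. Red cell transcripts (8 genes, mostly globins, whose near-identical copies make single values uncertain) summed to 5450, 22301 and 10195 FPKM in AOS hearts and 35305, 16943 and 6739 FPKM in control hearts.

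**Figure D1:**
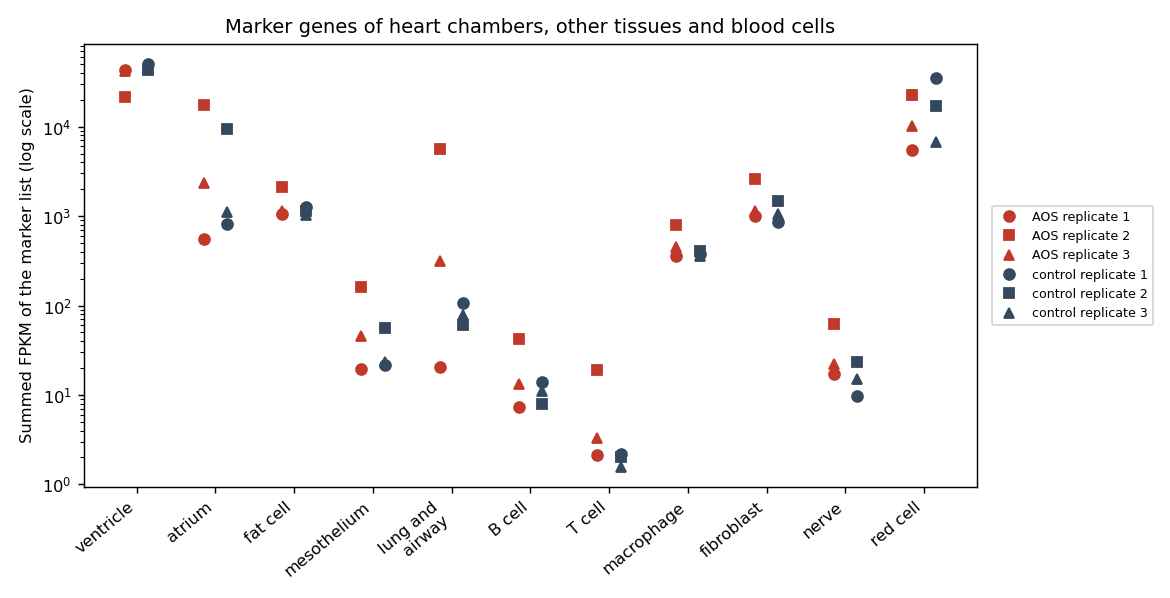
Summed FPKM of the marker genes of heart chambers, other tissues and blood cells in each of the 6 libraries (y axis, log scale; AOS in red on the left of each pair, control in dark blue on the right; symbols give the replicate number). Ventricular markers lie at 21357 FPKM or above everywhere, while AOS replicate 2 stands highest for atrium (17523 FPKM), airway and lung (5571 FPKM) and B cells (42.3 FPKM).

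Part of the transcripts high in AOS replicate 2 recurred at a small, similar fraction in AOS replicate 3. In all, 25 genes had at least 20 CPM (counts scaled to the library total) in AOS replicate 2 and at least 30 times the median of the other 5 libraries. Their level in AOS replicate 3 was a median 6.55% of that in AOS replicate 2 (quartiles 5.46% and 10.2%), against 0.681% in AOS replicate 1 and 0.263%, 0.757% and 0.573% in the controls. Airway, atrial and brown fat genes shared this fraction, with 5.61% for Scgb1a1, 6.15% for Bmp10 and 6.94% for Ucp1. In the control group 3 genes high in control replicate 2, among them Acadl, were found in control replicate 3 at a median of 8.25%. Genes were chosen for low levels in most of the other 5 libraries, so the low fractions there were partly set in advance. Whether reads passed between these libraries was not tested.

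No gene passed the test for AOS against control. By edgeR (quasi-likelihood test, Benjamini-Hochberg adjustment), 0 of 14687 genes (0% of those tested) had an adjusted p under 0.05, and the smallest adjusted p was 0.642. At an unadjusted p under 0.05 the test listed 1017 genes, 595 higher in AOS (4.05% of genes tested) and 422 lower (2.87%). Without AOS replicate 2 the number was 421 of 14828 genes (2.84%), and 289 of the 1017 genes were still under 0.05 with the same sign. DESeq2 called 8 genes of the 14395 it gave an adjusted p (0.0556%), limma on log2(FPKM + 1) called 1 and limma-voom called 0. Over all genes, 53.7% had a higher mean in AOS hearts, and the median log2 fold change was 0.03. Scaling to library totals, as FPKM does, moves that median to 0.15, and fold changes below are on the TMM scale unless stated. All single-gene values named below therefore describe 3 libraries against 3 and none is a call in edgeR.

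**Figure D2:**
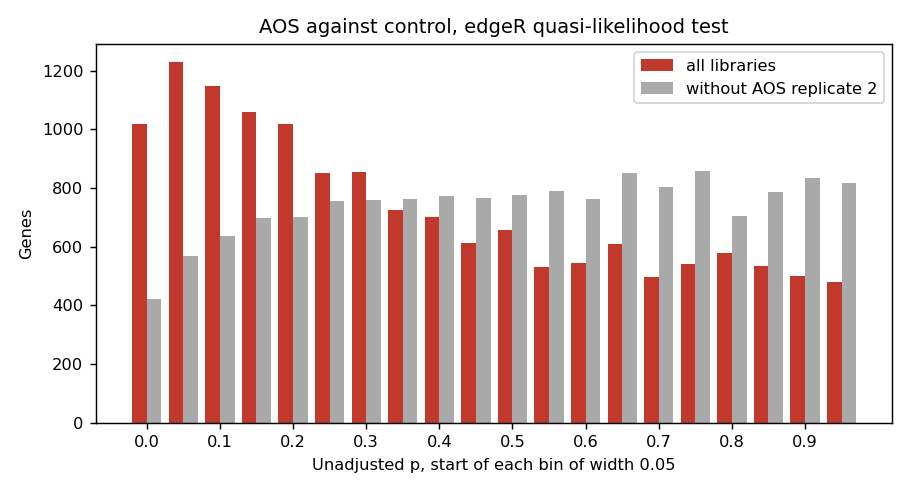
Number of genes (y axis) by unadjusted edgeR p-value for AOS against control (x axis, bins of width 0.05), with all libraries (red) and without AOS replicate 2 (grey). The first bin holds 1017 genes with all libraries and 421 without AOS replicate 2.

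Levels that did not overlap between the groups were counted for every gene. FPKM was higher in all 3 AOS libraries than in any control for 1179 genes (8.03% of those tested) and lower in all 3 for 373 (2.54%). The excess of the higher side is on the FPKM scale, whose all-gene median stood at 0.15.

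Protein folding genes had lower means in AOS hearts, with the largest median of the folding lists in the small heat shock proteins, which hold unfolding proteins in a soluble state in muscle. All 7 tested members had a lower mean. Their median log2 fold change was -0.56, against 0.03 over all genes tested. Of the 7, 4 lay below all controls without overlap, where 2.54% of all genes did, and 4 had an unadjusted edgeR p under 0.05, where 2.87% did. Without AOS replicate 2 all 7 were still lower, with a median of -0.31 and 1 at p under 0.05, where 214 of 14828 genes tested were. Leaving out any 1 of the 12 libraries gave medians between -0.81 and -0.31. Ventricular marker genes also had a lower median, at -0.39 with all libraries and -0.06 without AOS replicate 2. The part of ventricular content in the small heat shock result was not tested.

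The crystallin Cryab, among the abundant chaperones of heart muscle, was at 2229, 1611 and 1885 FPKM in AOS libraries and at 3036, 2760 and 2671 FPKM in control libraries. Every AOS library lay below every control. Its mean was 1908 ± 310 FPKM in AOS hearts and 2822 ± 190 FPKM in control hearts (SD, n = 3 each). The log2 fold change was -0.66 (SE 0.19, edgeR adjusted p = 0.642) and -0.49 (SE 0.16) without AOS replicate 2. Hspb1, which caps actin filaments and binds unfolding proteins, was at 317, 274 and 285 FPKM in AOS libraries and at 521, 428 and 410 FPKM in controls, again with no overlap (log2 fold change -0.75, SE 0.29). Hspb6, a small heat shock protein phosphorylated by protein kinase A, was at 691, 329 and 673 FPKM in AOS libraries and at 972, 914 and 844 FPKM in controls. The groups did not overlap, but the lowest value was that of AOS replicate 2, and the log2 fold change was -0.78 (SE 0.34) with it and -0.46 (SE 0.26) without it. Hspb8, partner of the co-chaperone Bag3, was at 406, 219 and 348 FPKM in AOS libraries and at 485, 444 and 420 FPKM in controls (log2 fold change -0.56, SE 0.26). For Hspb2 the groups overlapped (log2 fold change -0.34, SE 0.13). Its annotated interval overlaps that of Cryab, and the strand setting of the counting is not stated, so the reads of this pair could be split. Hspb7 overlapped too, with 1834 FPKM in AOS replicate 1 above all controls (1531 to 1540 FPKM).

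Of 21 tested heat shock genes, 20 had a lower mean in AOS hearts (median log2 fold change -0.25), and 18 of 21 without AOS replicate 2 (median -0.13). None of the 21 was without overlap between the groups. The lowest log2 fold change among them was that of Hspa1a, a heat-inducible HSP70, at -1.15, with 2.27, 4.64 and 3.71 FPKM in AOS libraries and 4.11, 4.22 and 13.2 FPKM in controls. Control replicate 3 alone was high there, and the near-identical copy Hspa1b makes the count uncertain. Hspe1, the lid of the mitochondrial folding chamber, was at 165, 120 and 187 FPKM in AOS libraries and at 277, 194 and 177 FPKM in controls (log2 fold change -0.57, SE 0.25). It overlaps Hspd1, the gene of the chamber itself, at its start. Ahsa1, which activates the chaperone HSP90, was at 85.1, 77.1 and 91.7 FPKM in AOS libraries and at 123, 99.7 and 90.6 FPKM in controls, and overlapped (log2 fold change -0.42, SE 0.17). Hspbp1, a nucleotide exchange factor that modulates HSP70, was fully separated at 13.2, 13.1 and 14.6 FPKM in AOS libraries, below 18.8, 19.1 and 17.4 FPKM in controls. Its log2 fold change was -0.54 (SE 0.15, edgeR adjusted p = 0.642).

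Heat shock genes are classically switched on by heat shock factor, which binds inverted repeats of the letters GAA upstream of the start site. The promoters of 3 of the genes above are printed, and all 3 hold a match. Each runs from 250 bases before to 50 bases after a RefSeq start (300 bases, GRCm38.p6), and capitals mark every GAANNTTC or TTCNNGAA. Both patterns read the same on either strand, and matches may overlap. The Hspb1 promoter (chr5:135887669-135887968, plus strand) has 2 matches, the second of 2 Hspb6 starts (chr7:30553051-30553350, plus strand) has 1, and Hspe1 (chr1:55087898-55088197, plus strand) has 3 that overlap. Of those not printed, the first Hspb6 start, Hspb7 and Ahsa1 have 0 matches, and Hspb8 has 1, which lies after its start site. Hspd1 has 0 at 1 start (chr1:55088194-55088493) and 3 at the other (chr1:55087883-55088182), both on the minus strand.
Hspb1: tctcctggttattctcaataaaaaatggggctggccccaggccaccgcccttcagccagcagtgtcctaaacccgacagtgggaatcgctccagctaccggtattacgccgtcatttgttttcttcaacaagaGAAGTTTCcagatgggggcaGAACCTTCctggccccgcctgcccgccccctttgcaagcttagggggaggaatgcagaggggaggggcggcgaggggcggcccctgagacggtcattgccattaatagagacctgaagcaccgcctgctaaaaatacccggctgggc
Hspb6: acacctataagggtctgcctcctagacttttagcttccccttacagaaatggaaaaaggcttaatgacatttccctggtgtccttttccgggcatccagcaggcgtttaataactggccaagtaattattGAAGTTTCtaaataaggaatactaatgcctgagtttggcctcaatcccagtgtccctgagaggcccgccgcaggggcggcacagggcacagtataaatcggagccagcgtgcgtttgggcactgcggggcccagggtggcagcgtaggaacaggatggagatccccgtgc
Hspe1: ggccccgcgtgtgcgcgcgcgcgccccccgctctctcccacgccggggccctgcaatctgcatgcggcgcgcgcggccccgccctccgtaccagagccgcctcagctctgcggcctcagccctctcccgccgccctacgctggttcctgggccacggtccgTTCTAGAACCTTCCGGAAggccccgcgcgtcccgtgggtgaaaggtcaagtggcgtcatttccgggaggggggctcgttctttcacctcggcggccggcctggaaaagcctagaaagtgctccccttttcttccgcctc
Such a match occurred in 4 of 6 promoters of the small heat shock list, from 4 genes (5 of its 7 genes were matched). In the heat shock list it occurred in 11 of 23 promoters, from 10 genes (17 of 21 genes were matched). Overlapping windows count some sites more than once there, as for Hspe1 and Hspd1. A match occurred in 1 of 21 proteasome promoters, in 2 of 22 ribosomal protein promoters and in 15.1% of all 32851 promoters. A match describes letters in this window and is not a measured binding site.

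Protein clearance and protein synthesis genes also had lower means. All 22 tested proteasome subunits were lower in AOS hearts (median log2 fold change -0.29), 5 at an unadjusted edgeR p under 0.05, where 2.87% of all genes were, and 4 below all controls, where 2.54% were. Without AOS replicate 2 the count was 21 of 22, with a median of -0.13 and 0 at p under 0.05. Ventricular markers had medians of -0.39 and -0.06 in the same fits. The part of ventricular content in the proteasome result was not tested. Psmb2, a subunit of the catalytic ring, was at 118, 95.0 and 121 FPKM in AOS libraries and at 155, 137 and 122 FPKM in controls. Control replicate 3 and both higher AOS libraries differed by under 5 FPKM, so the groups nearly met. Psmd14, the deubiquitinase of the lid, was at 36.9, 32.7 and 35.6 FPKM in AOS libraries and at 44.5, 43.0 and 37.5 FPKM in controls (log2 fold change -0.36, SE 0.13). Psmb6 (log2 fold change -0.40, SE 0.15) and the base ATPase Psmc1 (-0.33, SE 0.13) completed the 4 without overlap.

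Cytosolic ribosomal proteins were lower in 26 of 28 tested members (median log2 fold change -0.27), 8 of them at an unadjusted edgeR p under 0.05, where 2.87% of all genes were. Without AOS replicate 2 it was 27 of 28 with a median of -0.22, so the median moved little with that library. Only 2 members were then lower at an unadjusted edgeR p under 0.05, where 214 of 14828 genes tested were. None was separated from the controls by FPKM. Rpl38 was at 407, 521 and 511 FPKM in AOS libraries and at 643, 622 and 508 FPKM in controls (log2 fold change -0.44, SE 0.14). For Rpl30 the log2 fold change was -0.41 (SE 0.16). Ribosomal protein genes have many processed copies in the genome, and their counts are uncertain for that reason. Of the chaperones and sensors of the endoplasmic reticulum, 15 of 24 were lower (median log2 fold change -0.05, and 0.06 on library totals). This was 17 of 24, with a median of -0.10, without AOS replicate 2. Herpud1, which helps to extract misfolded proteins from that membrane, was at 95.7, 102 and 88.8 FPKM in AOS libraries and at 104, 113 and 103 FPKM in controls (log2 fold change -0.28, SE 0.11). In the autophagy list 14 of 19 were lower, and the median of -0.12 becomes 0.01 on library totals. Its member with the smallest p was Gabarap, which builds the autophagosome membrane, at 202, 221 and 192 FPKM in AOS libraries and at 252, 262 and 207 FPKM in controls (log2 fold change -0.35, SE 0.11).

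**Figure D3:**
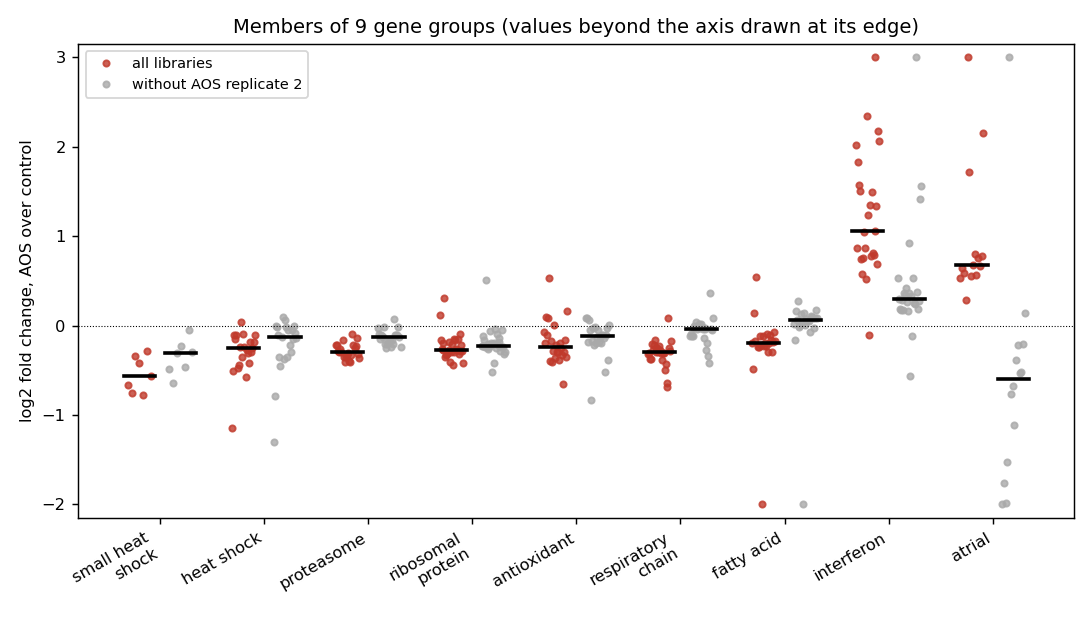
Log2 fold change of AOS over control (y axis) for each tested member of 9 gene groups (x axis), with all libraries (red) and without AOS replicate 2 (grey); black bars are medians and values beyond the axis are drawn at its edge. Small heat shock medians are -0.56 and -0.31, ribosomal protein medians -0.27 and -0.22, and atrial medians 0.67 and -0.60.

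Among redox genes, Gclc stood higher and Msrb1 lower in every AOS library. Gclc encodes the catalytic subunit of the rate-limiting enzyme of glutathione synthesis. It was at 6.19, 10.0 and 6.57 FPKM in AOS libraries and at 4.25, 4.91 and 4.42 FPKM in controls, so all AOS libraries lay above all controls. The mean was 7.59 ± 2.10 FPKM in AOS hearts and 4.53 ± 0.343 FPKM in control hearts (SD, n = 3 each). The log2 fold change was 0.63 (SE 0.15, edgeR adjusted p = 0.642) and 0.49 (SE 0.14) without AOS replicate 2. Its modifier subunit Gclm was at 11.3, 11.8 and 11.3 FPKM in AOS libraries and at 11.4, 10.0 and 11.2 FPKM in controls (log2 fold change 0.13, SE 0.17). Over the glutathione synthesis and NRF2 target list, 11 of 18 were higher with a median log2 fold change of 0.07, close to 0.03 over all genes tested.

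Msrb1, a selenoprotein that repairs oxidised methionine, was at 59.1, 52.4 and 60.8 FPKM in AOS libraries, all below the 94.4, 77.9 and 77.6 FPKM of the controls. Its mean was 57.4 ± 4.47 FPKM in AOS hearts and 83.3 ± 9.62 FPKM in control hearts (SD, n = 3 each). The log2 fold change was -0.65 (SE 0.14; adjusted p = 0.642 in edgeR and 0.0692 in DESeq2) and -0.52 (SE 0.13) without AOS replicate 2. In the whole antioxidant list 19 of 24 were lower (median -0.24), and 20 of 24 without AOS replicate 2 (median -0.11). Selenow, another selenoprotein of muscle, was at 158, 210 and 177 FPKM in AOS libraries and at 200, 254 and 180 FPKM in controls, and overlapped. The mitochondrial thioredoxin reductase Txnrd2 was at 77.1, 55.3 and 69.6 FPKM in AOS libraries and at 88.0, 81.8 and 76.0 FPKM in controls (log2 fold change -0.39, SE 0.18). Of 16 tested glutathione S-transferases, 12 were lower and 1 lay below all controls, where 2.54% of all genes did. That member was Gstk1 of peroxisomes and mitochondria (81.8, 89.0 and 90.5 FPKM in AOS libraries, 113, 94.2 and 94.9 FPKM in controls).

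The respiratory chain, fatty acid and glycolysis lists had lower medians that shrank or turned without AOS replicate 2, the library with the lowest sum of ventricular markers (21357 FPKM); the part of that content in the result was not tested. Respiratory chain and ATP synthase genes were lower in 25 of 26 tested members (median log2 fold change -0.30), yet the median was -0.04 without that library. Cox8b, a muscle subunit of cytochrome c oxidase, was at 1276, 799 and 1448 FPKM in AOS libraries and at 2161, 1699 and 1414 FPKM in controls (log2 fold change -0.69, SE 0.31). In fatty acid uptake and oxidation 21 of 23 were lower (median -0.19), and 5 of 23 without AOS replicate 2 (median 0.06), so the direction of the list turned. Cpt1a, the liver form of the enzyme that admits fatty acids to mitochondria, was at 13.3, 23.2 and 11.2 FPKM in AOS libraries and at 8.75, 9.10 and 11.9 FPKM in controls (log2 fold change 0.54, SE 0.22; 0.28 without AOS replicate 2). Of the glycolysis genes 21 of 23 were lower (median -0.23, and -0.04 without AOS replicate 2). The glycolytic enzyme Gapdh was at 60.1, 49.7 and 73.0 FPKM in AOS libraries and at 147, 107 and 83.4 FPKM in controls, without overlap (log2 fold change -0.93, SE 0.28). Gapdh has many near-identical copies in the mouse genome and its count is uncertain. PPAR targets that switch fuel use were higher in 9 of 17 (median 0.04), and in 11 of 17 without AOS replicate 2 (median 0.11), and leaving out any 1 library gave medians between -0.10 and 0.11. Among them Pdk4, which keeps pyruvate out of mitochondria, was at 87.8, 388 and 155 FPKM in AOS libraries and at 112, 73.6 and 143 FPKM in controls, with AOS replicate 2 alone far above the rest.

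Ventricular markers themselves were lower in 9 of 10 tested genes (median -0.39), and in 7 of 10 without AOS replicate 2 (median -0.06). The sarcomere list ran alike, with 16 of 19 lower (median -0.32) and 13 of 19 (median -0.12) without it. Cardiac troponin T, Tnnt2, was at 7829, 5156 and 6960 FPKM in AOS libraries and at 9742, 8121 and 7852 FPKM in controls. These did not overlap by FPKM, and the log2 fold change was -0.47 (SE 0.26, edgeR adjusted p = 0.642).

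Of 14 fetal and stress genes 12 were lower; the median log2 fold change was -0.31 over all libraries and -0.28 without AOS replicate 2. Skeletal actin Acta1, a gene of the fetal heart, was at 606, 108 and 207 FPKM in AOS libraries and at 506, 815 and 1068 FPKM in controls (log2 fold change -1.42, SE 0.73), so AOS replicate 1 lay within the controls. Mt1, a metal-binding protein, was lower in every AOS library, at 302, 260 and 292 FPKM, against 408, 322 and 314 FPKM in controls (log2 fold change -0.41, SE 0.18). Calcium handling genes were lower in 13 of 17 (median -0.10), and in 8 of 17 without AOS replicate 2 (median 0.04), so this list turned with that library. Rrad, which restrains the L-type calcium channel, was at 106, 88.0 and 120 FPKM in AOS libraries and at 130, 151 and 147 FPKM in controls, without overlap (log2 fold change -0.55, SE 0.22).

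Of 11 sodium pump and regulator genes 6 were lower (median -0.02, and 0.11 on library totals), 2 of them below all controls, where 2.54% of all genes were. Fxyd6, a small membrane protein that tunes the pump, was at 13.7, 19.2 and 13.6 FPKM in AOS libraries and at 22.8, 20.8 and 25.7 FPKM in controls, with no overlap. Its mean was 15.5 ± 3.20 FPKM in AOS hearts and 23.1 ± 2.46 FPKM in control hearts (SD, n = 3 each). The log2 fold change was -0.71 (SE 0.14, edgeR adjusted p = 0.642), and DESeq2 called it with an adjusted p of 0.0143. Without AOS replicate 2 the value was -0.79 (SE 0.16). Fxyd1, known as phospholemman, the main such regulator of heart muscle, was at 633, 587 and 648 FPKM in AOS libraries, below the 891, 902 and 676 FPKM of controls (log2 fold change -0.52, SE 0.17). Kcnn1, a small-conductance potassium channel opened by calcium, was at 4.02, 4.27 and 4.33 FPKM in AOS libraries and at 7.11, 5.18 and 6.31 FPKM in controls. Its log2 fold change was -0.68 (SE 0.18, edgeR adjusted p = 0.642). Hcn4, the pacemaker channel, was higher in all AOS libraries at 2.01, 2.68 and 2.53 FPKM, against 1.18, 1.36 and 1.67 FPKM in controls (log2 fold change 0.65, SE 0.32). The Hcn4 value was 0.57 with the atrial marker level as a covariate and 0.38 with the fat cell marker level. The atrial marker sum was lowest of all 6 libraries in AOS replicate 1. The part of other tissue content in the Hcn4 value was not tested.

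**Figure D4:**
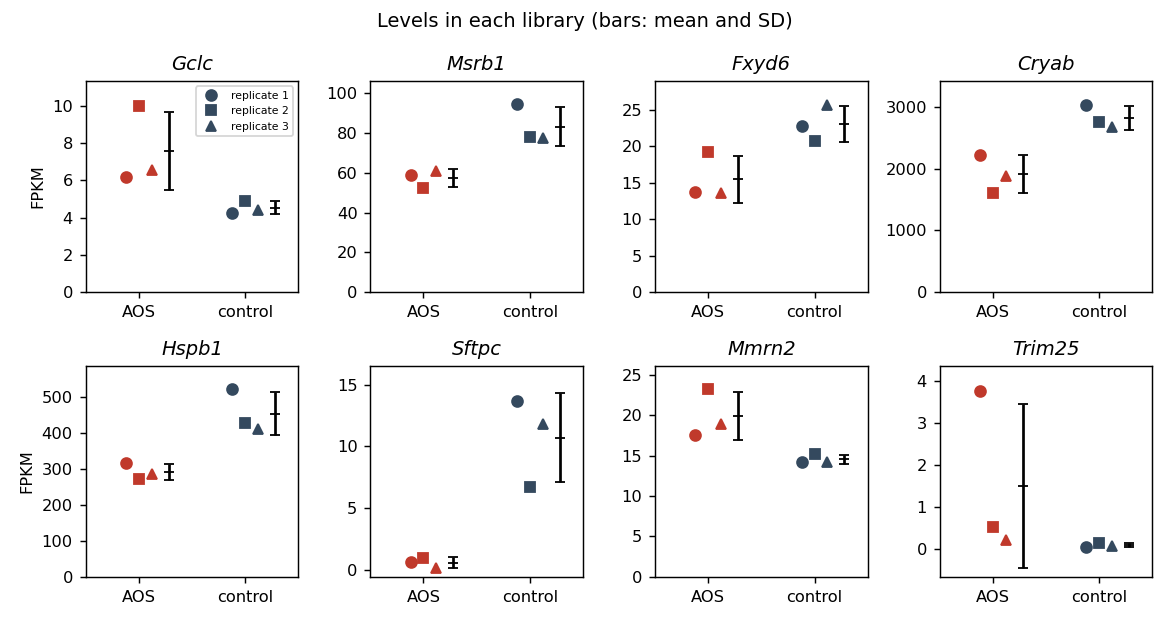
FPKM of 8 genes in each library (y axes start at or just below 0; AOS red on the left, control dark blue on the right; symbols give replicate numbers and black bars the mean and SD). Groups do not overlap in any of the 8, but Trim25 is high in AOS replicate 1 alone (3.76 FPKM).

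Immune genes had higher means, to a large part in AOS replicate 2. Interferon-stimulated genes, which block viral growth, were higher in 24 of 25 tested members (median log2 fold change 1.06). Of these, 5 were higher at an unadjusted edgeR p under 0.05, where 4.05% of all genes were. Above all controls were 6, where 8.03% of all genes were. Without AOS replicate 2 the list was higher in 23 of 25, with a median of 0.30. Then 1 member was higher at p under 0.05, where 207 of 14828 genes tested were. Ifit1, which binds foreign RNA ends, was at 1.74, 20.3 and 3.65 FPKM in AOS libraries and at 1.33, 2.16 and 1.96 FPKM in controls, so AOS replicate 1 lay within the control range. Nlrc5, the activator of MHC class I genes, was above all controls at 0.63, 1.98 and 1.23 FPKM, against 0.42, 0.44 and 0.60 FPKM in control libraries (log2 fold change 1.26, SE 0.55). Apol9a, an apolipoprotein induced by interferon in the mouse, was at 0.79, 4.18 and 1.54 FPKM in AOS libraries and at 0.30, 0.38 and 0.57 FPKM in controls; its near-identical neighbour Apol9b makes both counts uncertain.

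Among antigen presentation genes, H2-D1 was at 124, 269 and 331 FPKM in AOS libraries and at 102, 133 and 142 FPKM in controls (log2 fold change 0.81, SE 0.36, the same 0.81 without AOS replicate 2). Here AOS replicates 2 and 3 were high and AOS replicate 1 lay among the controls. H2 genes are close copies of each other and vary between strains, so their counts are uncertain. In the MHC class I list 6 of 8 were higher with a median of 0.57, and of 0.43 without AOS replicate 2. B cell and plasma cell markers were higher in 7 of 8 (median 1.72, and 0.21 without AOS replicate 2). The B cell receptor partner Cd79a was at 0.36, 11.6 and 2.05 FPKM in AOS libraries and at 0.85, 1.56 and 0.62 FPKM in controls. Jchain, which joins secreted IgA and IgM, was at 0.17, 4.71 and 2.07 FPKM in AOS libraries and at 0.15, 0.30 and 0.14 FPKM in controls; its level in AOS replicate 3 was 44.1% of that in AOS replicate 2, above the quartile range of 5.46% to 10.2% for the 25 genes high in AOS replicate 2. Macrophage markers were higher in 17 of 18 (median 0.31), and in 10 of 18 (median 0.04) without AOS replicate 2.

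Matrix, vessel and nerve genes differed by how far they rested on that library. Collagen and matrix genes were higher in 21 of 23 (median log2 fold change 0.25), but in 14 of 23 (median 0.02) without AOS replicate 2. Fbn1, the fibrillin of elastic microfibrils, was above all controls at 14.6, 19.1 and 14.5 FPKM, against 8.60, 13.6 and 13.0 FPKM in control libraries (log2 fold change 0.34, SE 0.15). Endothelial markers were higher in 9 of 16 with a median of 0.05. Mmrn2, an endothelial matrix protein, was at 17.6, 23.3 and 18.9 FPKM in AOS libraries and at 14.2, 15.2 and 14.2 FPKM in controls, all AOS libraries above all controls (log2 fold change 0.33, SE 0.09, edgeR adjusted p = 0.642). Nerve and Schwann cell markers were higher in 11 of 11 with a median of 0.81, and in 10 of 11 with a median of 0.27 without AOS replicate 2. Cdh19, a cadherin of Schwann cells, was at 1.63, 5.27 and 3.21 FPKM in AOS libraries and at 0.44, 1.36 and 1.77 FPKM in controls.

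The atrial and mesothelial lists turned with AOS replicate 2, and the fat cell median shrank without it. All 14 atrial markers were higher in AOS hearts (median 0.67), yet 12 of 14 were lower without AOS replicate 2 (median -0.60). Mesothelial markers were higher in 12 of 12 (median 1.08) and lower in 10 of 12 without it (median -0.09). Fat cell markers were higher in 13 of 14 with a median of 2.00, which was 0.28 without it. Wt1, a transcription factor of epicardium, kept the higher value in each AOS library at 2.57, 4.41 and 3.31 FPKM, against 1.74, 2.17 and 1.97 FPKM in controls (log2 fold change 0.67, SE 0.20; 0.54 without AOS replicate 2).

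DESeq2 called 5 genes higher and 3 lower at an adjusted p under 0.05, and 4 of the 5 higher ones were genes of other tissues or of 1 library. Bmp10, a growth factor of the atrium (chr6:87428994-87434512), was at 0.50, 252 and 15.5 FPKM in AOS libraries and at 0 FPKM in all 3 controls. With a floor of 3 counts over the whole control group it was at least 1191-fold higher in the pooled AOS counts, most of which come from AOS replicate 2 (DESeq2 adjusted p = 9.05e-05). Control replicate 2, at 0 FPKM for Bmp10, had a summed atrial marker level of 9474 FPKM, above the 2354 FPKM of AOS replicate 3. The part of atrial content in the Bmp10 value was not tested. Ucp1, the uncoupling protein of brown fat (chr8:83290348-83298456), was at 0.23, 26.5 and 1.84 FPKM in AOS libraries and at 0 FPKM in all controls, at least 161-fold higher by the same floor (DESeq2 adjusted p = 0.0402). The airway protein Bpifa1 was at 0.88, 368 and 19.9 FPKM in AOS libraries and at 0.10, 0.17 and 0 FPKM in controls (DESeq2 adjusted p = 0.00796). Trim25, a ubiquitin ligase of the RIG-I antiviral pathway (chr11:88999403-89020294), was at 3.76, 0.53 and 0.22 FPKM in AOS libraries and at 0.05, 0.14 and 0.06 FPKM in controls. All 3 AOS libraries were higher, the first by far (DESeq2 adjusted p = 0.0378). The remaining higher call was AI506816 at 5.40, 1.61 and 0.09 FPKM in AOS libraries and at 0 FPKM in all controls (at least 68.8-fold higher by the same floor; DESeq2 adjusted p = 0.00548).

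The lower calls were Fxyd6, the unnamed gene model BGIG10090_44912 and Sftpc. Sftpc, the surfactant protein of alveolar type II cells (chr14:70520941-70524081), was at 0.64, 0.95 and 0.12 FPKM in AOS libraries and at 13.6, 6.68 and 11.8 FPKM in controls. The separation was wide in every pair of libraries, with a log2 fold change of -4.35 (SE 0.75, edgeR adjusted p = 0.642) and a DESeq2 adjusted p of 6.74e-06. Limma on log2(FPKM + 1) called it too. Other surfactant genes were high in AOS replicate 2: Sftpa1 was at 0.10, 22.1 and 1.42 FPKM in AOS libraries and at 0.96, 0.32 and 0.77 FPKM in controls, and Sftpb was at 0, 4.72 and 0.23 FPKM in AOS libraries and at 1.05, 0.42 and 0.85 FPKM in controls. AOS replicates 1 and 3 lay below every control for Sftpb, as for Sftpc. Without AOS replicate 2 the lung and airway list had 3 of 11 members lower and 1 higher at an unadjusted edgeR p under 0.05. Over all 14828 genes tested in that fit, 214 were lower and 207 higher at that p. BGIG10090_44912 was at 0, 0.12 and 0 FPKM in AOS libraries and at 2.39, 1.16 and 0.39 FPKM in controls (DESeq2 adjusted p = 0.0461).

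Several further genes had small p-values and groups without overlap. On the lower side, Mrpl34 of the mitochondrial ribosome was at 60.3, 46.6 and 66.5 FPKM in AOS libraries and at 163, 85.3 and 95.9 FPKM in controls (log2 fold change -1.11, SE 0.28). Cox19, which assembles cytochrome c oxidase, was at 39.5, 42.2 and 33.1 FPKM in AOS libraries and at 47.5, 58.4 and 42.8 FPKM in controls, and Asna1, which inserts tail-anchored proteins into membranes, was at 39.0, 42.7 and 41.7 FPKM in AOS libraries and at 50.2, 53.1 and 43.3 FPKM in controls. Their log2 fold changes were -0.50 (SE 0.14) for Cox19 and -0.37 (SE 0.11) for Asna1. Afmid, an enzyme of tryptophan breakdown whose interval overlaps Tk1, was at 2.76, 3.72 and 3.21 FPKM in AOS libraries and at 7.27, 3.77 and 6.44 FPKM in controls, where control replicate 2 nearly met the AOS range. The beta-tubulin Tubb6 (log2 fold change -0.52, SE 0.15), Jtb (-0.55, SE 0.15) and Fam122a (-0.50, SE 0.14) were the remaining lower genes with small p.

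On the higher side, beside Gclc and Trim25, most had low levels. Ripor2, an inhibitor of the small GTPase RhoA, was at 1.80, 2.73 and 3.12 FPKM in AOS libraries and at 1.41, 0.90 and 0.97 FPKM in controls (log2 fold change 1.11, SE 0.26; 1.15 without AOS replicate 2). Plcb2, a phospholipase C of blood cells, was at 0.77, 1.61 and 1.06 FPKM in AOS libraries and at 0.52, 0.53 and 0.45 FPKM in controls. Adcy4, an adenylyl cyclase, was at 7.70, 8.98 and 7.02 FPKM in AOS libraries and at 5.98, 6.88 and 5.84 FPKM in controls, a small step with a small error (log2 fold change 0.30, SE 0.08). Slc16a7, a carrier of pyruvate and lactate, was at 1.58, 3.34 and 2.43 FPKM in AOS libraries and at 1.14, 1.26 and 1.21 FPKM in controls. Slc22a21, a carnitine transporter, was at 1.56, 2.55 and 1.55 FPKM in AOS libraries and at 0.66, 0.88 and 1.11 FPKM in controls (log2 fold change 0.93, SE 0.26). Smc2, a condensin subunit that compacts mitotic chromosomes, had 0.67 (SE 0.17), the phospholipid flippase Atp8a2 0.89 (SE 0.25) and the lymphocyte GTPase Gimap3 1.79 (SE 0.51) as log2 fold changes. Xntrpc, at 0.75 (SE 0.18), shares its interval with Xndc1 and Trpc2, and its count is uncertain.

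Cell cycle, DNA damage and clock lists had small medians. Cell cycle genes were higher in 19 of 24 (median log2 fold change 0.21), and in 20 of 24 (median 0.18) without AOS replicate 2. Without AOS replicate 3 the median was 0.03, the value over all genes tested. Ccne2, cyclin E2, was at 1.07, 1.05 and 1.29 FPKM in AOS libraries and at 0.67, 0.65 and 0.75 FPKM in controls, without overlap (log2 fold change 0.52, SE 0.23). Targets of p53 were higher in 12 of 22 with a median of 0.03, as over all genes. The translesion polymerase Polk was nonetheless above all controls, at 2.14, 3.19 and 2.11 FPKM, against 1.58, 1.66 and 1.92 FPKM in control libraries. Clock genes were higher in 10 of 18 (median 0.04), and the clock output gene Dbp, which overlaps Sphk2, was lower in every AOS library at 6.05, 5.32 and 7.06 FPKM, against 7.53, 7.08 and 9.23 FPKM in controls.

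The study also gave AOS after busulfan, so the AOS effect could be compared between both settings. In edgeR 0 of 14687 genes (0% of those tested) differed in that effect at an adjusted p under 0.05, and 432 (2.94%) were under 0.05 before adjustment. The number called was 5 in DESeq2, which was fitted to the same 14687 genes. Ripor2 was lower after AOS in busulfan hearts, at 0.87, 0.83 and 0.70 FPKM with busulfan plus AOS, against 1.54, 1.28 and 1.73 FPKM with busulfan, the opposite of its order without busulfan. In edgeR, which did not call it, the difference between the effects was -2.17 on the log2 scale (SE 0.37). The DESeq2 adjusted p was 0.00172. Acad12, an acyl-CoA dehydrogenase, had the reverse order, with 15.8, 20.9 and 14.2 FPKM in AOS libraries against 27.7, 27.3 and 17.6 FPKM in controls. With busulfan plus AOS it was at 23.8, 34.3 and 27.2 FPKM, against 14.0, 19.0 and 15.3 FPKM with busulfan. Its difference in edgeR, again not called, was 1.43 (SE 0.30), and the DESeq2 adjusted p was 0.0306. The kidney gene Kap, Acadl and an unnamed gene model were the other DESeq2 calls, and the first pair of these had libraries at or near 0 in several groups.

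After busulfan, Hspb1 and Msrb1 had higher means with AOS, where both had lower means without busulfan. Hspb1 was at 1115, 523 and 545 FPKM with busulfan plus AOS, against 385, 332 and 531 FPKM with busulfan (difference between effects 1.44, SE 0.41). Msrb1 was at 63.0, 58.5 and 61.7 FPKM with busulfan plus AOS, against 55.8, 57.1 and 47.3 FPKM with busulfan (difference 0.75, SE 0.20), and all 6 of these libraries lay below the 3 controls. For Fxyd6 the difference was 0.72 (SE 0.20). Gclc was at 9.36, 9.98 and 8.59 FPKM with busulfan plus AOS, against 5.76, 7.56 and 6.20 FPKM with busulfan, above in each library as without busulfan (difference -0.22, SE 0.20). Mmrn2 likewise was at 29.3, 26.3 and 29.2 FPKM with busulfan plus AOS, against 19.0, 17.9 and 20.7 FPKM with busulfan (difference 0.12, SE 0.13). None of these differences had an adjusted p under 0.05 in edgeR. Hspb1, Msrb1, Fxyd6, Gclc and Ripor2 were named for their AOS and control values. Those values also enter the differences, so part of each can follow from that choice.

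**Figure D5:**
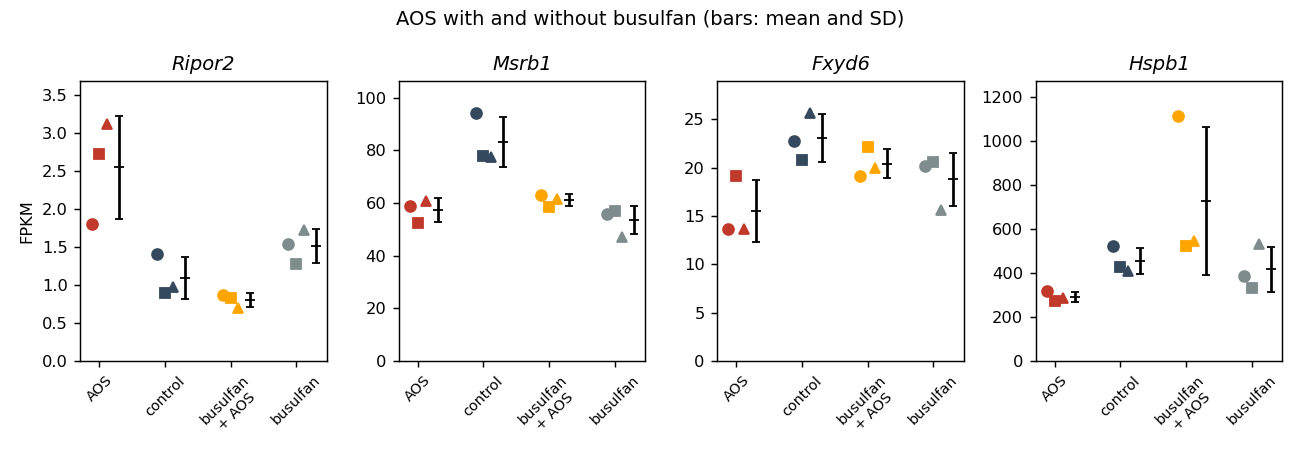
FPKM of 4 genes in all 12 libraries (y axes from 0; AOS, control, busulfan plus AOS and busulfan from left to right; symbols give replicate numbers, black bars the mean and SD). Ripor2 is above its control in AOS hearts (1.80 to 3.12 FPKM) and below busulfan in busulfan plus AOS hearts (0.70 to 0.87 FPKM). The 4 genes were named for their AOS and control values.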

How the data were processed

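RNA of mouse hearts was sequenced, and 1 table of 19246 genes was used. The authors deposited estimated counts per gene and library, per the file headers, of which 19.7% to 22.8% in a library are fractional. The authors also deposited an expression value, taken here as FPKM. Reads were placed on build mm10, as the submitters' processing notes name it; which aligner, counter and annotation made the counts is not given in the sources used here. Group means that the authors added (8 columns) were not used. Of the genes, 18268 carry an Entrez identifier and 978 are unnamed models; coordinates and promoters are RefSeq's for GRCm38.p6, matched on the identifier.

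Groups and replicate numbers came from the sample titles. Counts were rounded (library totals moved by at most 18.1), filtered with filterByExpr (4559 genes left out), scaled with TMM and fitted with group means over all 12 libraries in edgeR 4.0.16 (R 4.3.3, quasi-likelihood test, Benjamini-Hochberg threshold 0.05). The biological coefficient of variation was 29.1%. Leaving out AOS replicate 2 repeats the filter. With 3 libraries against 3 an exact permutation test cannot go below p = 0.1, so none is given. DESeq2 1.42.0, limma 3.58.1 (voom, and log2 FPKM with a pseudocount of 1 or 0.1), other scalings and filters, marker covariates, a replicate block and leaving out each library were alternatives.

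The members, the 49 gene lists and the rules were chosen with earlier results of these data known. Named genes are the 12 higher and 12 lower genes with the smallest unadjusted p, no overlap in FPKM, a mean of at least 1 FPKM in either group and a symbol that is not a predicted gene; any gene called by edgeR, DESeq2 or limma; and up to 4 members of a list by smallest p, or any marker of heart chambers, other tissues and blood cells. Mmrn2, Gclm, Acad12 and the further list members named with values were picked after values were seen where they fall outside this rule. Heat shock motifs were searched in 32851 promoters.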

Additional observations from a re-analysis of the deposited data

How the results depend on the processing

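The count of 0 genes in edgeR for AOS against control was also 0 with limma-voom, with limma on log2(FPKM + 0.1), with library totals and with the replicate block. It was 8 with DESeq2, 1 with limma on log2(FPKM + 1) and 1 (Bmp10) with the atrial marker level as a covariate. The difference of AOS effects had 0 in edgeR and 5 in DESeq2. The 1017 genes at an unadjusted p under 0.05 were 499 in a fit of the 6 libraries alone, 576 with the fat cell marker level as a covariate and 851 with the replicate block. Leaving out 1 library gave from 395 (without control replicate 1) to 1885 (without AOS replicate 1), with 421 without AOS replicate 2 and 1663 without control replicate 3. On library totals there were 1279, 88.2% of them higher, where TMM gave 58.5%. Deviations of equal replicate numbers correlated at 0.253, 0.251 and -0.0747 in AOS and control. Unequal numbers were not set beside them, so these values cannot decide whether the numbers pair the samples. For the 92 genes followed over up to 24 settings, mostly chosen for small p, 0 of 2188 fold changes reversed. Other genes do reverse, such as the marker Myl7 (log2 fold change 0.53, and -2.01 without AOS replicate 2). At 9929772 to 12670751 counts per library, low genes such as Trim25 or Jchain rest on few counts.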

Other observations

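Some genes were near 0 in part of the libraries of both groups and well counted in others, and they were chosen after their values were seen. Acadl, the long-chain acyl-CoA dehydrogenase of fatty acid oxidation, had 5.65, 2.94 and 0 estimated counts in AOS libraries and 10.1, 1609 and 122 in control libraries. Wdr46, a protein of ribosome assembly, had 0.03, 27.0 and 68.8 counts in AOS libraries and 43.7, 92.9 and 9.78 in control libraries. Tmem254c had 0, 110 and 0 counts in AOS libraries and 72.0, 0 and 1.60 in control libraries. The platelet chemokine Ppbp had 0, 145 and 0 counts in AOS libraries and 72.9, 57.0 and 0 in control libraries, and was at 0 FPKM in all 6 libraries of the busulfan groups. The groups overlapped for Wdr46, Tmem254c and Ppbp. For Acadl, each control library lay above each AOS library, and control replicate 2 held most of the counts. Why single libraries hold these transcripts was not tested.

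Genes known from distant organs were also detected. The liver protein Alb was at 38.9, 18.0 and 90.2 FPKM in AOS libraries and at 1.62, 86.6 and 12.2 FPKM in control libraries. Kap, a gene known from mouse kidney, was at 55.0, 44.3 and 74.1 FPKM in AOS libraries and at 3.01, 43.1 and 23.9 FPKM in control libraries, each AOS library above each control, but at 0 FPKM in all 3 busulfan plus AOS libraries.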
